A study of Mus musculus with 36 samples.

Results

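Genes for the subunits of respiratory complexes II to V were followed in the peripheral blood of 18 male mice, 8 weeks old, of 6 inbred strains with 3 mice each: FVB/NJ, DBA/2J, C57Bl/6J, C3H/HeJ, 129S1/ImJ and A/J. The labels name no altered gene and no treatment, and all mice were housed singly before blood was drawn from the heart under isoflurane. Each mouse gave a pair of Affymetrix arrays, one from whole blood RNA and one from RNA of the same animal after alpha and beta globin messengers had been taken out with the GLOBINclear kit, which makes 12 groups of 3 arrays. The members were found by symbol. They are the genes with a probe set of a single platform symbol that starts with Sdha, Sdhb, Sdhc, Sdhd, Uqcr, Cyc1, Cox4, Cox5, Cox6, Cox7, Cox8 or Atp5, without assembly factors (Sdhaf) and pseudogenes (-ps), and each gene is read from its brightest probe set, judged by the mean of all 36 arrays. This gave 47 of the 18193 genes on the array, of which 4 belong to complex II, 9 to complex III, 17 to complex IV and 17 to complex V. Values are the deposited log2 expression summaries, so a difference of 1 is a 2-fold change. Of the 47, 42 had a mean above the filter on low signal (log2 2.89) and were tested. The other 5 (Cox4i2, Cox6a2, Cox7b2, Cox8b and Cox8c) were too dim and are given as values only.

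Complex II (succinate dehydrogenase) passes electrons from succinate to ubiquinone, complex III (ubiquinol-cytochrome c reductase) passes them on to cytochrome c, and complex IV (cytochrome c oxidase) hands them to oxygen. Complexes III and IV pump protons across the inner mitochondrial membrane, and complex V (ATP synthase) uses the proton gradient to make ATP. All 47 genes are nuclear. In blood, mature red cells have no mitochondria, young reticulocytes still carry and then clear them, and platelets and leukocytes keep theirs, so the messengers measured here come from a mixture of cells. In such a mixture fewer cells of a type and less RNA per cell cannot be told apart.

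The arrays of the preparations differed as a whole. A level of log2 5 was reached by 2495 probe sets in the mean whole array and by 4364 in the mean GLOBINclear array. For the actin and Gapdh controls, the excess of 3' over 5' signal, which is high when RNA is short or partly copied, averaged 0.13 in whole and 1.17 in GLOBINclear RNA and was higher after depletion in 18 of 18 mice. Globin probe sets averaged 11.17 before and 9.83 after. Marker lists of red cells and reticulocytes, platelets, B cells, T cells, NK cells, neutrophils and monocytes were all measured in every sample. The part of these array-wide shifts in the results below was not tested. The arrays of C57Bl/6J replicate 1 and 129S1/ImJ replicate 3 correlated least with the arrays of their own groups (mean r = 0.95 and 0.96), and in the latter mouse neutrophil markers averaged 9.12 after depletion, where the lowest mouse of its strain had 6.59.

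After globin depletion most of these genes stood higher. Of the 42 tested members 35 rose, 27 of them at least 2-fold, 4 fell and 3 had no call (limma, mouse as a block, Benjamini-Hochberg adjustment over 22518 probe sets). Of the 35, 33 were higher in 18 of 18 mice, a count that was not made for all probe sets. Of all tested probe sets 39.4% rose (18.2% rose at least 2-fold) and 47.6% fell. The median change over all 47 members was 1.17 against -0.05 over all tested probe sets. The rises held in every alternative that left out a mouse, but they depend on the scale. When all 36 arrays were forced to 1 distribution, 24 members rose and 10 fell, and the median change of all tested probe sets was -0.08. When arrays were centred on the hybridization spike-ins 42 rose, while the median change of all probe sets was then 1.99. The shares of all probe sets called under these scalings were not counted, so the member counts have no background there. In 3 members that rose (Sdha, Cox6b1 and Cox8a) the 18 whole and 18 GLOBINclear values did not overlap, and 17.4% of all tested probe sets did not overlap in either direction.

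**Figure D1:**
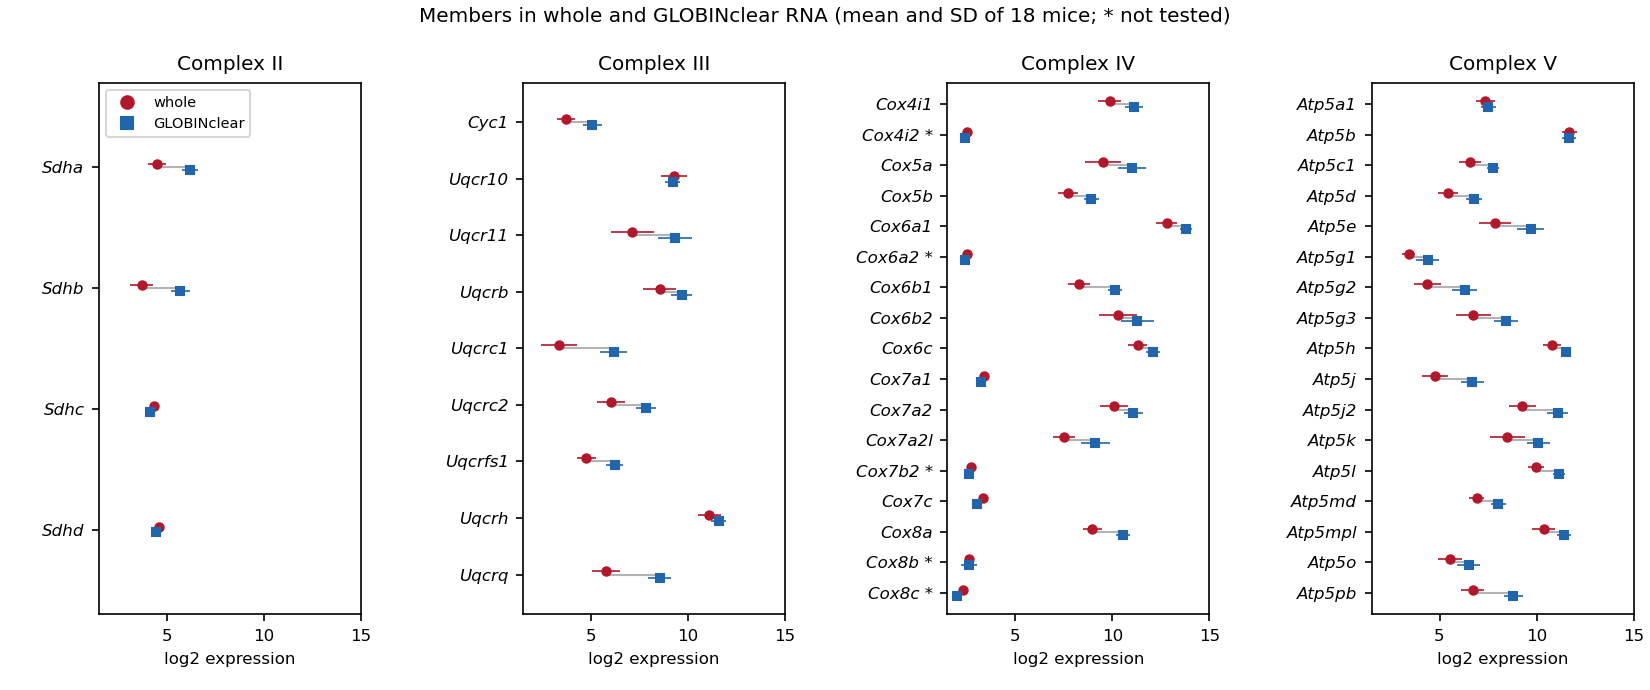
Mean log2 expression of each member in whole (circles) and GLOBINclear RNA (squares) over 18 mice, with SD bars, in 1 panel for each complex. Most members lie further right in GLOBINclear RNA, while Sdhc, Sdhd, Cox7a1, Cox7c, Uqcr10, Atp5a1 and Atp5b move by 0.27 or less and the members marked with a star were too dim to be tested.

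Upstream sequence of the members was searched for short runs of letters, whether or not the gene rose after depletion. The promoter table, from RefSeq on GRCm38.p6, held 35 of the 47 members, and the 250 bases before the annotated start were searched on both strands. The palindromic site of nuclear respiratory factor 1, the longer run of capitals in the sequences, was present in 3 of 35 members (Atp5g2, Atp5k and Cox6a1) and in 0.877% of all 27025 genes of the table. The letters CCGGAAG, a core of the sites of GABP and other ETS factors, were in 9 of 35 members (Atp5e, Atp5h, Atp5j, Atp5l, Cox6a1, Cox6b1, Sdhd, Uqcr11 and Uqcrh) and in 7.83% of all genes. AAGATGGC, a YY1 core, was in 1 member (Atp5j) against 1.83% of genes, GGGCGG, an SP1 core, in 12 of 35 against 35.4%, and TATAAA in 3 of 35 against 14.3%. A match is only a match of letters. The 3 members with the palindrome and Uqcr11, a complex III member that also differs between strains, are printed 5' to 3' along their own strand, with the palindrome and CCGGAAG (or CTTCCGG, its reverse) in capitals. All 4 lie on the minus strand. The stretches are chr15:102671048-102671297 for Atp5g2, chr5:108434400-108434649 for Atp5k, chr5:115348959-115349208 for Cox6a1 and chr10:80406822-80407071 for Uqcr11.
Atp5g2: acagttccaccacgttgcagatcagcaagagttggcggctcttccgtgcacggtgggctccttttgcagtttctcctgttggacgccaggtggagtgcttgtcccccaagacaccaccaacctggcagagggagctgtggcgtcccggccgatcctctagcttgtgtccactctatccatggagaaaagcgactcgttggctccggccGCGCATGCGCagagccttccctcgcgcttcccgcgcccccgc
Atp5k: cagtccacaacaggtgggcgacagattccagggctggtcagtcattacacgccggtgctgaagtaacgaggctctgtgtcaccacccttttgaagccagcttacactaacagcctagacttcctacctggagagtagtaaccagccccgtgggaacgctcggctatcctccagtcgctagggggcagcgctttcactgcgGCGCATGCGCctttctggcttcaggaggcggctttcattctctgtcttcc
Cox6a1: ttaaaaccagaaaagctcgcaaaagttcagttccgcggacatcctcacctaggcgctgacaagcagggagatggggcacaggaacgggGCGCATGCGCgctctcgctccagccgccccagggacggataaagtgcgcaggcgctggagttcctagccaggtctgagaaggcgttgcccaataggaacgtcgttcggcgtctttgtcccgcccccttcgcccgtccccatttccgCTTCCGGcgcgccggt
Uqcr11: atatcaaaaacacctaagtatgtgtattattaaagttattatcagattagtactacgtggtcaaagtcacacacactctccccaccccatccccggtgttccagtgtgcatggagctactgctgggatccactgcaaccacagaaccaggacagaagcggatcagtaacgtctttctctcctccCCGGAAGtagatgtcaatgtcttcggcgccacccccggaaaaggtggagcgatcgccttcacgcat
In Atp5g2 and Atp5k the palindrome ends 32 and 40 bases before the start, and in Cox6a1 it ends 152 bases before it. The CTTCCGG of Cox6a1 ends 9 bases before the start and the CCGGAAG of Uqcr11 ends 59 bases before it. The sequence is that of the C57BL/6J reference and not of the other strains.

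In complex II the catalytic pair rose, while the membrane anchors fell slightly on their brightest probe sets and rose on their second ones. Sdha, the flavoprotein subunit, ranged from 3.69 to 5.17 (median 4.55) in whole RNA and from 5.64 to 7.21 (median 6.11) in GLOBINclear RNA. The groups did not overlap, and the change was 1.69 ± 0.09 (SE, 18 mice, limma adjusted p = 2.39e-12). Sdhb, the iron-sulfur subunit, went from 3.69 ± 0.58 (SD, n = 18) to 5.69 ± 0.48, a change of 2.00 ± 0.09 in 18 of 18 mice. The anchor genes Sdhc and Sdhd bind heme and ubiquinone. Sdhc spanned 3.96 to 5.03 in whole and 3.95 to 4.52 in GLOBINclear RNA and fell by 0.23 on the log2 scale (SE 0.07, adjusted p = 0.00326, lower in 14 of 18 mice). Sdhd spanned 4.38 to 4.84 and 4.32 to 4.83 and fell by 0.14 (SE 0.05, adjusted p = 0.0161, lower in 15 of 18 mice). In both genes the groups overlapped widely. Their second probe sets rose, by 0.48 for Sdhc (limma adjusted p = 0.000199) and by 0.93 for Sdhd (adjusted p = 8.3e-07). The mean over the probe sets changed by 0.12 for Sdhc (adjusted p = 0.0795) and by 0.40 for Sdhd (adjusted p = 2.88e-05). The direction in the anchor genes thus depends on the probe set. Spike-in centring gave 1.84 and 1.94, where the median change of all tested probe sets was 2.03. This scaling shifts the changes of all probe sets alike and leaves their order as it was.

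Complex III held the largest rises. Uqcrc1, a core subunit, lay between 2.64 and 5.73 (median 3.13) in whole RNA and between 5.26 and 7.32 (median 5.86) in GLOBINclear RNA. Only the 2 brightest whole samples, C57Bl/6J replicate 1 at 5.34 and FVB/NJ replicate 2 at 5.73, reached into the depleted range, and the change was 2.81 ± 0.13 (SE, limma adjusted p = 1.33e-13, 18 of 18 mice). Most of its whole values lay near the bottom of the scale. Uqcrq, a small subunit next to cytochrome b, ranged from 4.47 to 7.65 (median 5.79) before and from 7.64 to 9.67 (median 8.62) after, with a change of 2.78 ± 0.11 (adjusted p = 1.21e-14). The ranges met only at their edges. Uqcr11, another small subunit, rose by 2.22 ± 0.11 and the second core subunit Uqcrc2 by 1.80 ± 0.11, each in 18 of 18 mice. The electron carriers of the complex rose as well, the Rieske iron-sulfur protein Uqcrfs1 by 1.46 ± 0.09 and the cytochrome gene Cyc1 by 1.37 ± 0.08.

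The other small subunits of complex III were already bright in whole RNA. Uqcrb, which contacts the ubiquinone site, rose by 1.15 ± 0.10 (SE) in 17 of 18 mice but changed by -0.030 when all arrays were quantile normalized. Uqcrh, the hinge protein, rose by 0.47 ± 0.07 in 16 of 18 mice but changed by -0.36 under the same scaling, while its second probe set rose by 1.52. Uqcr10 had no call. It ranged from 8.08 to 10.46 (median 9.50) in whole and from 8.39 to 9.68 (median 9.33) in GLOBINclear RNA, and the change was -0.09 ± 0.12 (limma adjusted p = 0.474, higher in 7 and lower in 11 mice). Its other probe sets rose by 0.56 and 1.09, and the mean over all 3 changed by 0.52.

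In complex IV the genes of the common isoforms rose, and most genes of tissue-restricted isoforms were too dim to test. Among the genes for the isoforms of most tissues, Cox4i1 rose by 1.25 ± 0.06 (SE), Cox6a1 by 0.99 ± 0.06, Cox6b1 by 1.87 ± 0.09, Cox7a2 by 0.99 ± 0.09 and Cox8a by 1.59 ± 0.11, each in 18 of 18 mice. Cox6b1, which faces the intermembrane space, went from a range of 7.18 to 9.32 (median 8.28) to 9.47 to 10.77 (median 10.16), and no whole sample reached the lowest depleted one. Of the isoform genes known from other tissues, Cox4i2 (lung), Cox6a2 and Cox8b (heart and skeletal muscle) and Cox7b2 and Cox8c (testis) had medians from 1.99 to 2.69 in either preparation, at the bottom of the scale. The highest single value among these 5 genes was Cox8b at 4.25 on the GLOBINclear array of 129S1/ImJ replicate 3, where its 17 other values lay between 2.45 and 2.73. Cox7a1, the muscle isoform, passed the filter with 3.39 ± 0.15 (SD, n = 18) before and 3.21 ± 0.11 after. It fell by 0.18 (SE 0.04, adjusted p = 0.00081, 17 of 18 mice).

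The testis isoform gene Cox6b2 did not follow that pattern. Its single probe set ranged from 8.46 to 12.42 (median 10.30) in whole and from 9.68 to 13.09 (median 11.36) in GLOBINclear RNA. The ranges overlapped widely, and within mice it rose by 0.99 ± 0.08 (SE, limma adjusted p = 6.21e-10, 18 of 18). Among the subunits without such a tissue partner here, Cox5a rose by 1.504 ± 0.08, Cox6c by 0.80 ± 0.06 and Cox5b, which binds zinc, by 1.202 ± 0.08, though Cox5b changed by -0.060 after quantile normalization of all arrays. Cox7a2l, known for joining complexes III and IV into supercomplexes, rose by 1.61 ± 0.10. Cox7c fell by 0.27 (SE 0.03, adjusted p = 1.74e-08) in 18 of 18 mice, from 3.16 to 3.62 (median 3.31) to 2.81 to 3.18 (median 3.05). Both of its groups sit near the bottom of the scale, where the median change of all tested probe sets up to log2 3.5 was -0.15, and after spike-in centring Cox7a1 and Cox7c changed by 1.89 and 1.81. After that scaling the median change of all tested probe sets was 2.03. It shifts the changes of all probe sets alike, so their order cannot serve as a check.

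In complex V the genes of the catalytic head had no call on their brightest probe sets on the deposited scale. Those of the central stalk rose. Atp5a1 and Atp5b encode the alpha and beta subunits of the head. Atp5b ranged from 10.86 to 12.55 (median 11.70) in whole and from 11.25 to 12.70 (median 11.62) in GLOBINclear RNA and changed by -0.01 ± 0.05 (SE, limma adjusted p = 0.896), up in 8 mice and down in 10. Atp5a1 changed by 0.18 ± 0.09 (adjusted p = 0.0854), up in 13 mice, and by -1.14 after quantile normalization of all arrays. Its other probe sets rose by 2.05 and 0.34, and the mean over all 3 rose by 0.86 (limma adjusted p = 9.33e-11). The lack of a call in Atp5a1 thus holds for its brightest set only. The central stalk genes rose in 18 of 18 mice. They were Atp5c1 (gamma, 1.17 ± 0.09), Atp5d (delta, 1.35 ± 0.10) and Atp5e (epsilon, 1.83 ± 0.10), of which Atp5c1 changed by -0.18 after quantile normalization of all arrays.

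The peripheral stalk and membrane genes of ATP synthase rose without exception on the deposited scale, each in 18 of 18 mice. Atp5pb, the b subunit of the peripheral stalk, ranged from 5.89 to 8.43 (median 6.71) before and from 8.17 to 10.38 (median 8.77) after, and a single overlap zone between 8.17 and 8.43 held the brightest whole and the dimmest depleted samples. The coupling factor gene Atp5j rose by 1.93 ± 0.08 (SE). Atp5o (the oligomycin sensitivity subunit, 0.95 ± 0.08) and Atp5h (subunit d, 0.73 ± 0.08) also rose, but they changed by -0.38 and -0.10 after quantile normalization of all arrays. The proton-carrying c ring is encoded by Atp5g1, Atp5g2 and Atp5g3, which give the same mature protein. Atp5g1 rose by 1.00 ± 0.09 from 3.40 ± 0.32 (SD, n = 18), near the bottom of the scale. Atp5g2 rose by 1.93 ± 0.10 from 4.36 ± 0.69, and Atp5g3 by 1.67 ± 0.12 from 6.75 ± 0.90. The accessory membrane subunits, several of which help ATP synthase form dimers, were Atp5j2 (1.84 ± 0.08), Atp5k (1.60 ± 0.11), Atp5l (1.19 ± 0.07), Atp5mpl (1.05 ± 0.10) and Atp5md (1.13 ± 0.09), the last of which changed by -0.19 after quantile normalization of all arrays.

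Of the 92 probe sets of the members, 45 were not the brightest of their gene. Of these, 31 were tested, 29 rose and 2 fell, the latter being sets of Atp5g1 (-0.26) and Atp5j2 (-1.01). Of all tested probe sets 39.4% rose and 47.6% fell. Most of the 31 sets lay above log2 5, where 84.2% to 92.6% of all tested probe sets rose, depending on the level. The Atp5j2 set that fell lay at 5.86 in whole RNA, and the other sets of the gene rose by 1.84 and 1.04. For 18 members no second probe set exists.

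The rises were common among probe sets of like brightness. Above log2 9, 15 of 17 members rose and 84.2% of all tested probe sets did, with a median change of 1.05 for the members and 0.89 for all. Between log2 7 and 9, 9 of 10 members rose against 92.6%, with medians of 1.64 and 1.36, and between 5 and 7 all 7 members rose against 90.5%, with medians of 1.69 and 1.43. Between 3.5 and 5, 4 of 6 members rose against 55.7%, and of the 2 dimmer members (Cox7a1 and Cox7c) none rose against 17.4%. The share of members that rose is therefore close to that of other probe sets at the same level.

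**Figure D2:**
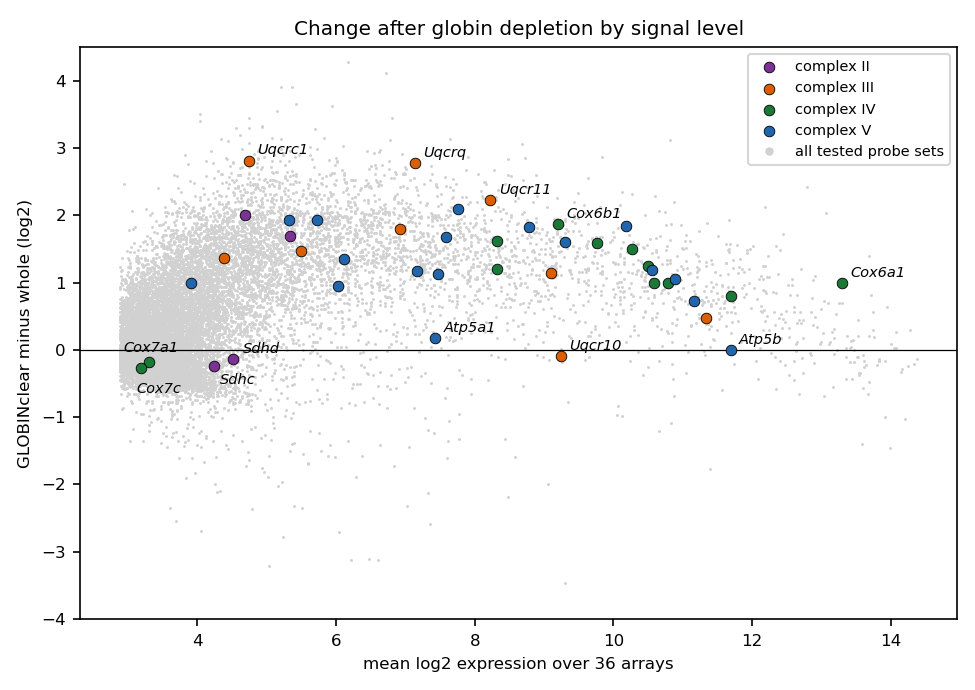
Change after globin depletion (GLOBINclear minus whole, log2) against mean log2 expression over all 36 arrays, with members coloured by complex and all 22518 tested probe sets in grey (3 lie outside the drawn range). Most members lie above 0 within the grey cloud, and Atp5a1 (0.18), Atp5b (-0.01) and Uqcr10 (-0.09) lie near 0.

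Neighbouring pathways were read from the same fit, and the 3 genes named from each list have its largest moderated statistics (change over SE), not its largest changes. Of 33 tested complex I subunit genes 32 rose (median change over the list 1.55), among them Ndufb6 (1.85 ± 0.07, SE), Ndufa6 (2.35 ± 0.09) and Ndufc1 (2.96 ± 0.12). Of 19 assembly factors of complexes II to V 12 rose and 6 fell (median 0.72), and the named ones are the copper chaperone gene Cox17 (2.19 ± 0.09), Coa3 (1.64 ± 0.09) and Sdhaf4 (1.55 ± 0.09). Among 8 electron and adenylate carriers 7 rose and 1 fell, including the outer membrane channel gene Vdac3 (1.52 ± 0.07), the phosphate carrier gene Slc25a3 (1.27 ± 0.06) and the ADP/ATP carrier gene Slc25a5 (1.33 ± 0.09). The tricarboxylic acid cycle, which feeds the chain, had 12 of 15 genes higher and 1 lower (median 1.05), among them Ogdh (2.80 ± 0.09), Mdh2 (2.70 ± 0.11) and Pdha1 (1.83 ± 0.09). Genes of mitochondrial transcription and biogenesis split into 7 that rose and 5 that fell of 12 (median 0.17), such as Yy1 (1.67 ± 0.09), Ssbp1 (1.43 ± 0.12) and the coactivator gene Ppargc1a (-0.30 ± 0.03). For the clearance of mitochondria from reticulocytes 6 of 8 genes rose and 1 fell (median 0.60), among them Pink1 (1.55 ± 0.10), Ulk1 (1.86 ± 0.12) and Map1lc3b (0.54 ± 0.04).

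The second question was whether the 6 strains differ in these genes. Limma's F test over the strains called 7 of 42 members in whole RNA (16.7%, against 4.32% of all tested probe sets) and 14 of 42 in GLOBINclear RNA (33.3%, against 11.2%). The same 7 were called in both preparations (16.7%, against 3.43%): Uqcr11, Cox5a, Cox6b2, Cox6c, Atp5e, Atp5j2 and Atp5k. GLOBINclear RNA added Uqcr10, Uqcrh, Cox6b1, Cox7a2, Cox7a2l, Atp5l and Atp5mpl, and none of the 4 complex II genes was called. Bright probe sets are called more often. Above log2 9, 5 of 17 members were called in whole RNA against 28.1% of all tested probe sets, and 11 of 17 in GLOBINclear RNA against 39.8%. Between log2 7 and 9 the counts were 2 of 10 against 25.6% and 3 of 10 against 37.8%, with 2 of 10 against 23.1% in both preparations and, above log2 9, 5 of 17 against 24%. Below log2 7 no member was called. There the shares of all tested probe sets between 5 and 7, between 3.5 and 5 and up to 3.5 were 16.6%, 3.37% and 0.563% in whole RNA, 30%, 13.9% and 3.93% in GLOBINclear RNA, and 12.9%, 2.48% and 0.338% in both. With 3 mice a strain the whole RNA count is not firm. It rose to 11 without 129S1/ImJ replicate 2 or without FVB/NJ replicate 1, and the count in both rose to 11 without 129S1/ImJ replicate 2. The calls of Atp5j2 (adjusted p = 0.0524 without DBA/2J replicate 2 and 0.0503 without FVB/NJ replicate 3) and Atp5k (0.0543 without DBA/2J replicate 1) in whole RNA each hung on single mice. So did the calls in GLOBINclear RNA of Cox7a2 (0.0563 without C57Bl/6J replicate 2, 0.063 without FVB/NJ replicate 1 and 0.0516 without FVB/NJ replicate 2) and Uqcrh (0.0516 without 129S1/ImJ replicate 1, and 0.0579 and 0.0628 without A/J replicates 1 and 3).

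Blood cell markers also differed between strains. The mean of 8 platelet markers in whole RNA ran from 8.80 in 129S1/ImJ and 8.97 in A/J to 10.33 in C57Bl/6J and in FVB/NJ, and the F test called 7 of the 8 in whole and 6 in GLOBINclear RNA. The mean of 10 red cell and reticulocyte markers in whole RNA ran from 7.35 in 129S1/ImJ and 7.60 in C57Bl/6J to 8.36 in A/J, with 2 of 9 tested markers called. Neutrophil markers in whole RNA averaged 5.99 ± 1.66 (SD, n = 3) in 129S1/ImJ and 4.28 ± 0.51 in FVB/NJ. The 129S1/ImJ mice ran from 4.87 to 7.90 and the FVB/NJ mice from 3.87 to 4.84. Of the 6 markers none was called in whole and 4 were called in GLOBINclear RNA. The part of these cell types in the strain differences of the members was not tested.

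Cox5a was low in 129S1/ImJ and high in C57Bl/6J. In whole RNA the 3 mice of 129S1/ImJ read 8.37, 8.17 and 7.53, those of C57Bl/6J 10.77, 10.80 and 10.96, and those of the other 4 strains lay between. In GLOBINclear RNA 129S1/ImJ read 9.95, 10.03 and 9.15, below all 15 other mice (10.63 to 12.04), and C57Bl/6J read 11.42, 11.69 and 12.04, overlapping FVB/NJ and DBA/2J. The F test gave adjusted p = 0.00241 in whole and 0.000488 in GLOBINclear RNA. On the mean of each mouse's arrays 129S1/ImJ stood 1.68 ± 0.21 (SE) lower than the mean of the other 5 strains (a log2 difference of -1.68, limma adjusted p = 0.000189) and C57Bl/6J 1.22 ± 0.21 higher (adjusted p = 0.0024). The other probe sets of Cox5a gave -1.95 and -1.40 for 129S1/ImJ and 1.54 and 0.98 for C57Bl/6J, so all 3 sets had the same signs.

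Cox6b2, the testis isoform gene, had its high end in FVB/NJ. Whole RNA of FVB/NJ read 11.32, 12.42 and 11.83 against 8.46 to 11.01 in the 15 other mice, and GLOBINclear RNA 12.16, 13.09 and 12.16 against 9.68 to 12.05. In neither preparation did FVB/NJ overlap the others, and its contrast was 1.65 ± 0.21 (SE, limma adjusted p = 0.00029). At the low end 129S1/ImJ read 8.93, 9.86 and 8.46 in whole RNA and C57Bl/6J 9.25, 9.56 and 9.41, with contrasts of -1.37 ± 0.21 (adjusted p = 0.000844) and -1.004 ± 0.21 (adjusted p = 0.00781). Both strains overlapped each other. The F test adjusted p was 0.000577 in whole and 0.000479 in GLOBINclear RNA, and no second probe set exists to check the order.

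Uqcr11, which has no second probe set as a check, ran the other way in 129S1/ImJ. That strain read 7.83, 8.72 and 9.69 in whole and 10.14, 10.51 and 11.55 in GLOBINclear RNA, where the 15 other mice lay between 8.05 and 9.74. It thus stood apart after depletion and overlapped the others before it, with a contrast of 1.82 ± 0.26 (SE, limma adjusted p = 0.000659). The highest value came from replicate 3, the mouse with high neutrophil markers, and without it and C57Bl/6J replicate 1 the contrast was 1.37 (adjusted p = 0.00401). DBA/2J read 5.81, 5.89 and 5.79 in whole RNA and C57Bl/6J 6.21, 5.83 and 6.25, the lowest of all strains, each with a contrast of -1.25 ± 0.26 (adjusted p = 0.0192 and 0.00972). The DBA/2J call was lost without any of its mice (adjusted p from 0.0918 to 0.122) and the C57Bl/6J call without its replicate 2 (0.0786).

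Cox7a2l singled out DBA/2J. In GLOBINclear RNA its mice read 10.44, 10.68 and 10.63, and the 15 others 8.14 to 9.35. In whole RNA they read 8.19, 9.26 and 8.03 against 6.80 to 7.91, again without overlap, although the F test in whole RNA missed the threshold (adjusted p = 0.135, against 5.49e-06 in GLOBINclear RNA). A second probe set of the gene was called in whole RNA (adjusted p = 0.00574), as was the mean of its 3 sets (0.00741). The contrast of DBA/2J was 1.45 ± 0.17 (SE, limma adjusted p = 0.000109), and 1.62 and 1.39 on the other probe sets of the gene. FVB/NJ was at the low end, at 8.37, 8.14 and 8.38 in GLOBINclear RNA, below all other mice (8.72 or more), with a contrast of -0.68 ± 0.17 (adjusted p = 0.0371, and 0.0386 without both mice that stand apart). That call was lost without any 1 of the 3 FVB/NJ mice (0.0526 to 0.183) and without any 1 of the A/J or C3H/HeJ mice or C57Bl/6J replicate 2 (0.0504 to 0.0606).

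Atp5e, the epsilon subunit gene, had 129S1/ImJ at the bottom and FVB/NJ at the top. In whole RNA 129S1/ImJ read 6.35, 7.36 and 6.92 and FVB/NJ 8.64, 9.71 and 9.15, the latter above all 15 other mice (8.57 at most). In GLOBINclear RNA 129S1/ImJ read 8.53, 8.81 and 9.18 and FVB/NJ 10.43, 10.89 and 10.27, but C3H/HeJ, at 10.28, 10.51 and 10.60, lay within the range of FVB/NJ. On mouse means neither strain overlapped the rest, with contrasts of -1.10 ± 0.18 (SE, limma adjusted p = 0.0017) and 1.29 ± 0.18 (adjusted p = 0.000701). For FVB/NJ this was close to a tie, with its lowest mouse at 9.5378 and the highest other mouse at 9.5376. The F test adjusted p was 0.00445 in whole and 0.000465 in GLOBINclear RNA. Atp5e, too, has no second probe set to check the order.

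The remaining members called in both preparations were genes of membrane subunits. Atp5j2 (adjusted p = 0.0217 and 0.000894) ran in whole RNA from 8.48 ± 0.17 (SD, n = 3) in DBA/2J and 8.74 ± 0.13 in C57Bl/6J to 10.16 ± 0.55 in FVB/NJ, and in GLOBINclear RNA from 10.34 ± 0.15 in C57Bl/6J to 11.71 ± 0.43 in FVB/NJ. Atp5k (adjusted p = 0.0165 and 0.00481) ran in whole RNA from 7.26 ± 0.43 in DBA/2J to 9.34 ± 0.53 in 129S1/ImJ, and in GLOBINclear RNA from 9.32 ± 0.12 in C57Bl/6J to 10.67 ± 0.36 in C3H/HeJ. For Cox6c (adjusted p = 0.00821 and 0.00722) the lowest mean in whole RNA was 10.71 ± 0.22 in DBA/2J and the highest 11.90 ± 0.30 in FVB/NJ. In all 3 genes DBA/2J and C57Bl/6J had the lowest means in whole RNA. Their mice overlapped in Cox6c and Atp5k and lay close without overlap in Atp5j2 (8.59 at most and 8.60 at least in whole RNA). At the high end the mice of 129S1/ImJ, C3H/HeJ and FVB/NJ overlapped in each gene. Both other probe sets of Atp5k and the second set of Cox6c were called in both preparations. So was 1 of the 2 other sets of Atp5j2, while the one that fell was called in neither.

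**Figure D3:**
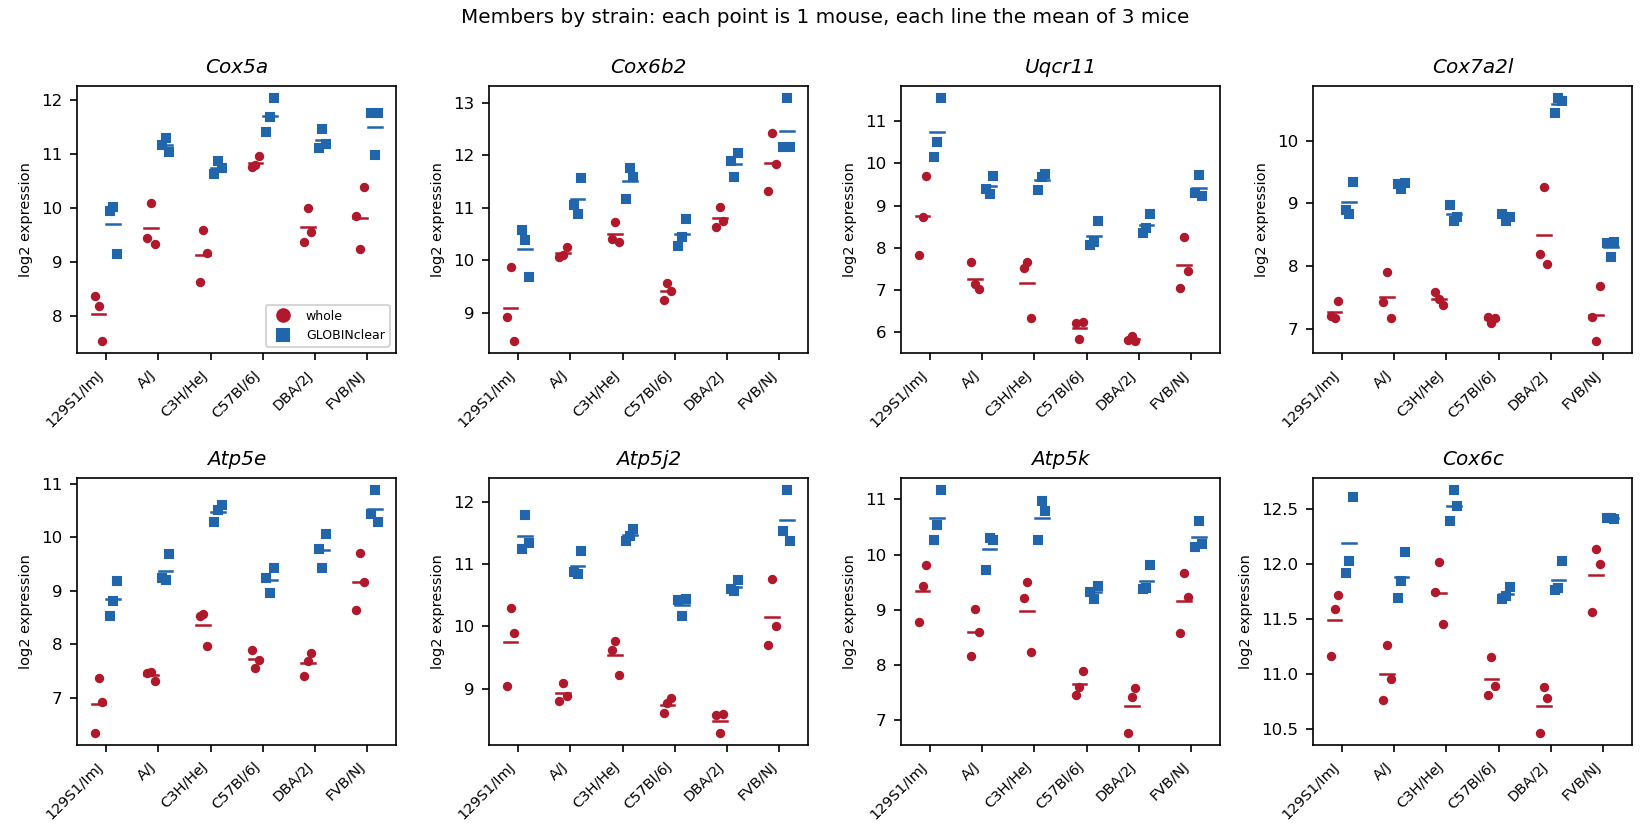
Log2 expression of 8 members by strain, in whole (circles) and GLOBINclear RNA (squares), where each point is 1 mouse and each line the mean of 3 mice. DBA/2J stands above the rest in Cox7a2l, FVB/NJ in Cox6b2, 129S1/ImJ below the rest in Cox5a, and the order of strains differs from gene to gene.

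Set against the mean of the other 5, the strains had 33 called pairs of member and strain among 252 (13.1%, against 3.68% of all such pairs of tested probe sets), 15 higher and 18 lower, in 16 members. The 16 members all averaged above log2 7, and in the F tests bright probe sets were called more often. The shares of all probe sets or pairs given here and for each strain are not matched for brightness. An excess over them therefore cannot be read as a trait of the members. All 33 had the same sign in both preparations, which come from the same mice. The calls were made on the mean of both arrays of a mouse, which favours pairs with equal signs. The shared sign is therefore no separate check. In 8 of the 33 the strain's mice did not overlap the others (3.17% of the members' pairs, against 1.07% of all pairs). The edges nearly met for Atp5e in FVB/NJ (9.5378 against 9.5376) and for Uqcr11 in 129S1/ImJ (8.986 against 8.984). As a share of called pairs alone this was 24.2% for the members and 29.1% for all tested probe sets. FVB/NJ had 10 called members (3.76% of all probe sets were called there, 2.76% higher and 0.995% lower), 9 of them higher, namely Cox6b1, Cox6b2, Cox6c, Cox7a2, Atp5e, Atp5h, Atp5j2, Atp5l and Atp5mpl, and Cox7a2l lower. C57Bl/6J had 9 (5.8% of all, 3.87% higher and 1.93% lower), with Cox5a and Cox6a1 (0.67 ± 0.15, SE) higher and Uqcr10, Uqcr11, Cox6b2, Cox6c, Atp5j2, Atp5k and Atp5mpl lower. The Uqcr10 contrast in C57Bl/6J was -0.84 on its brightest probe set. On its other sets it was -0.26 and 0.03 and was not called (limma adjusted p = 0.529 and 0.994). 129S1/ImJ had 7 (5.78% of all, 2.76% higher and 3.02% lower), Uqcr11 and Atp5k (0.84 ± 0.23) higher and Uqcrh, Cox5a, Cox6b2, Atp5e and Atp5h lower. DBA/2J had 6 (2.14% of all, 1.03% higher and 1.11% lower), Cox7a2l higher and Uqcr11, Cox6c, Atp5j2, Atp5k (-1.09 ± 0.23) and Atp5mpl lower. C3H/HeJ had Cox6c alone higher by 0.52 ± 0.12 (1.39% of all, 0.751% higher and 0.635% lower), and A/J had no called member (3.24% of all, 1.55% higher and 1.69% lower).

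Most calls in FVB/NJ were higher and most in DBA/2J, C57Bl/6J and 129S1/ImJ lower. The mean over the 42 tested members in whole RNA was lowest in DBA/2J (6.91 ± 0.14, SD, n = 3) and highest in FVB/NJ (7.68 ± 0.50), and in GLOBINclear RNA it was 8.34 ± 0.18 and 8.75 ± 0.32. FVB/NJ replicate 2 had the highest mean of all mice in both preparations, 8.24 and 9.11. The other FVB/NJ mice began at 7.28 and 8.50, inside the range of other strains. The median contrast over the members was 0.39 in FVB/NJ and -0.44 in DBA/2J, against 0.01 and -0.01 over all tested probe sets. C57Bl/6J and 129S1/ImJ were not low as a whole. Their means in whole RNA were 7.28 and 7.26, where all 18 mice averaged 7.29, and their median contrasts were -0.04 and 0.06. Of the 33 calls 9 held when any single mouse was left out, and the count was 17 without C57Bl/6J replicate 2 and 21 without FVB/NJ replicate 3. The 9 were Cox5a in 129S1/ImJ and C57Bl/6J, Cox6b2 in 129S1/ImJ, C57Bl/6J and FVB/NJ, Atp5e in 129S1/ImJ and FVB/NJ, Uqcr11 in 129S1/ImJ and Cox7a2l in DBA/2J.

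**Figure D4:**
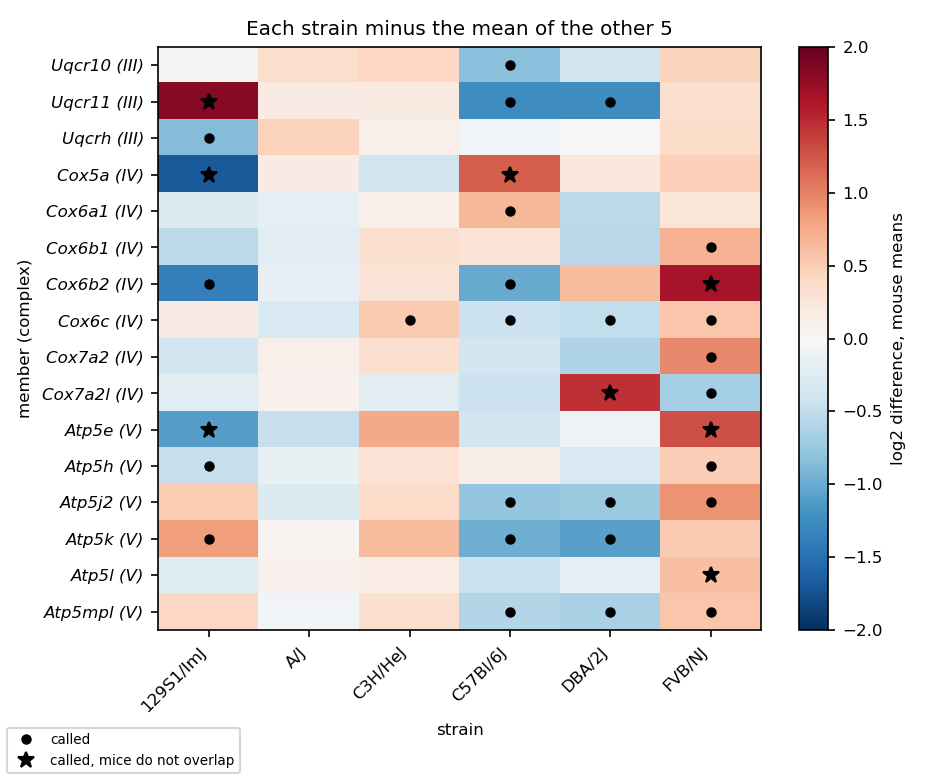
Log2 difference of each strain from the mean of the other 5, on the mean of each mouse's arrays, for the 16 members with a call in any strain. Dots mark calls and stars mark calls in which the strain's 3 mice do not overlap the 15 others, 8 in all.

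The third question was whether the effect of globin depletion differs between strains. No member was called by limma's interaction F test, and 2.75% of all tested probe sets were called. At an unadjusted p under 0.05 the counts were 4 of 42 members and 3271 of all 22518 tested probe sets. The lowest adjusted p was 0.158, for Cox5a, whose depletion effect was 0.87 in C57Bl/6J and 1.54 to 1.69 in the other strains. When each gene was the mean of its probe sets, 2 members passed, Cox7a2l (adjusted p = 0.0318) and Uqcr10 (adjusted p = 0.00314). The dimmest probe set of Uqcr10, not the one that stands for the gene, was itself called. It changed by 2.13 in 129S1/ImJ, 2.17 in C3H/HeJ, 1.23 in C57Bl/6J and 1.28 in DBA/2J, and by -0.16 in A/J and -0.12 in FVB/NJ (interaction adjusted p = 1.97e-05). Before depletion all 18 mice were near the bottom of the scale.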

How the data were processed

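Group and replicate of each of the 36 arrays came from its title. The authors deposited log2 expression summaries of 45101 probe sets (the log2 scale was inferred from the range of values). The submitters' processing notes name GCRMA, MAS5 and affy (versions, roles and joint normalization: not given in the sources used here). Without 64 controls, the 22518 probe sets above the median mean level (2.89) were tested, named through the platform annotation.

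Fits used limma 3.58.1 in R 4.3.3 with an intensity trend and a Benjamini-Hochberg threshold of 0.05. The depletion effect had the mouse as a block, since both arrays of a mouse are paired by design (deviations from the group means correlated at a median r of 0.38, above 0.1 in 17 of 18 mice). Strains were tested by F tests in each preparation, and each against the other 5 on mouse means. Fits were tested on simulated data. Plots used matplotlib 3.10.9. Genes given by sample were the 4 largest rises and falls, those called by strain in both preparations, extremes of strain contrasts, tissue isoforms and 3 per pathway list. Members, lists and rules were chosen with earlier results of these data known. P-values of the strain tests measure the spread of levels between these mice. Those of the depletion and interaction tests measure how the difference between the paired arrays varies from mouse to mouse. The number of mice and arrays limits the precision.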

Additional observations from a re-analysis of the deposited data

Results flagged for a closer look

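The dimmest tested Uqcr10 probe set had an effect of globin depletion that differed between strains (limma interaction F test, adjusted p = 1.97e-05). In GLOBINclear RNA it read 2.62, 2.70 and 2.86 in A/J and 2.62, 2.81 and 2.80 in FVB/NJ, at the bottom of the scale, and 5.24, 5.35 and 4.70 in 129S1/ImJ, 4.96, 5.33 and 5.36 in C3H/HeJ, 4.41, 3.78 and 4.18 in C57Bl/6J and 4.17, 4.02 and 4.49 in DBA/2J. No mouse of A/J or FVB/NJ overlapped those of the other 4 strains. The brightest and the middle Uqcr10 set had interaction adjusted p = 0.597 and 0.107. The cause was not tested.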

How the results depend on the processing

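The depletion calls on members kept their direction and side of the threshold under no filter on low values, without the intensity trend, without both mice that stand apart (an alternative chosen after seeing the data) and without the mouse block (no replicate block, 35 higher and 4 lower). After quantile normalization of all arrays the median change of the members was 0.18, the count of lower members 10, and the changes turned to -1.14 (Atp5a1), -0.18 (Atp5c1), -0.10 (Atp5h), -0.19 (Atp5md), -0.38 (Atp5o), -0.060 (Cox5b), -0.030 (Uqcrb) and -0.36 (Uqcrh). After spike-in centring, which moves all probe sets up, the median was 3.25, the count of lower members 0 and that of members called by strain in whole RNA 11, and Atp5b changed by 2.07, Cox7a1 by 1.89, Cox7c by 1.81, Sdhc by 1.84, Sdhd by 1.94 and Uqcr10 by 1.99. With no filter 7 members were lower, since the dim members were then tested. With the mean of all probe sets of a gene 2 were lower, 2 passed the interaction test, and Sdhc (0.12), Sdhd (0.40) and Uqcr10 (0.52) turned. Shares of all probe sets called were not counted under these settings. Beyond these constructions the cause was not tested.

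With the replicate number as a block (replicate block), which pairs nothing across strains (median r = 0.02 in whole and 0.05 in GLOBINclear RNA), 11 members were called by strain in whole RNA, 14 in GLOBINclear RNA and 9 in both, with 33 strain contrasts. Leaving out each mouse in turn gave medians of 1.13 to 1.21, 35 to 36 members higher, 4 lower, 0 interaction calls, 6 to 11 members called by strain in whole RNA, 13 to 16 in GLOBINclear RNA and 6 to 11 in both, and 17 to 37 strain contrasts. Low signal limits what can be said of Cox4i2, Cox6a2, Cox7a1, Cox7b2, Cox7c, Cox8b and Cox8c.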
